A study of Saccharomyces cerevisiae with 9 samples.

Results

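The enzymes that turn glucose into ethanol, glycerol and acetate, and those of the pentose phosphate pathway, were followed at the transcript level in budding yeast that lacks LOS1. A list of 35 genes was fixed by name, and 34 of them had a probe set, out of 5449 Saccharomyces cerevisiae genes measured. TDH2, which encodes a glyceraldehyde-3-phosphate dehydrogenase, is not analysed here. The wild-type group was 6 cultures of BY4742, a haploid MATalpha laboratory strain (cultures 1 to 6), and the other group was 3 cultures of the same strain carrying a LOS1 knockout (cultures 7 to 9). Los1 is the exportin that carries tRNA from the nucleus to the cytosol. The titles of the knockout arrays also name URA3, the gene of an enzyme of uracil synthesis, so the groups differ at both loci. The deletions of HIS3, LEU2 and LYS2 that the BY4742 background carries are shared by both groups. All cultures grew in rich glucose medium at 30 °C to an optical density of 0.5, each was put on its own Affymetrix Yeast_2 array, and the study asked which genes might act downstream of Los1 on lifespan when nutrients are not restricted. Each strain was represented by 3 isolates, with duplicate cultures for the wild type, per the labels' protocols. Which wild-type cultures share an isolate is not stated, so p-values measure the spread between cultures, some of which are of the same isolate.

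Glycolysis splits glucose into pyruvate with a net gain of ATP. In budding yeast growing on ample glucose most of the pyruvate is decarboxylated to acetaldehyde and reduced to ethanol, and smaller flows leave for glycerol and for acetate, the source of cytosolic acetyl-CoA. The pentose phosphate pathway branches off at glucose-6-phosphate and supplies NADPH and the precursors of nucleotides and aromatic amino acids. Several steps are served by more than one isozyme, of which one carries most of the flux during growth on glucose and the others are used in other conditions or compartments. The terms major and minor below follow that background knowledge and not these arrays, because signals of different probe sets cannot be compared as amounts of transcript. In counts over the isozyme pairs they follow the order of listing, which departs from that meaning for some genes, ALD4 and GPM2 among them.

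Values are log2 expression, and differences are deletion minus wild type with the standard error (SE) and the moderated 95% confidence interval of a limma fit over all 5449 genes. A gene is said to have risen or fallen where its Benjamini-Hochberg adjusted p over all genes was under 0.05. The strains carried the marks of their labels. LOS1 (YKL205W) was at 11.11 ± 0.16 (SD, n = 6) in wild type and under the background level in each deletion culture, at least 84.1-fold lower (limma adjusted p = 4.79e-10), and URA3 (YEL021W) went from under background in wild type to 10.88 ± 0.04 (SD, n = 3), which is at least 72.8-fold higher by limma (adjusted p = 2.06e-11). LEU2 and LYS2 lay near background in both groups, between 4.08 and 4.86. The background level was 4.67, the 95th percentile of the probe sets for fission yeast that the array also carries. The MATalpha genes MF(ALPHA)1, MF(ALPHA)2, STE3 and SAG1 were between 11.75 and 13.97 on all 9 arrays, and the MATa genes STE2, MFA1, MFA2, BAR1, STE6 and AGA2 between 5.11 and 7.82.

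Transcripts of the central pathway differed little between the strains. Of the 34 members 1 rose, ALD5, a mitochondrial aldehyde dehydrogenase, and 1 fell, PFK27, a kinase that makes the allosteric activator of phosphofructokinase. The 2 calls are 5.88% of the members, against 5.52% of all genes (2.62% higher and 2.9% lower), so the share of members called lay near the background. The median difference was -0.02 over the members and -0.01 over all genes, and the median size of the difference was 0.057 and 0.073. The smaller median size of the members came with their bright genes. It was 0.0093 for the 9 members with a mean signal above 14, where it was 0.014 for all 85 genes. For the other 25 members it was 0.105, above the 0.073 of all genes, and 8% of these 25 were called. The 95% interval lay within a 1.2-fold change in either direction for 23 members (67.6%, against 65.0% of all genes). These include all 9 members with a mean signal above 14, where the same held for 85 of 85 genes, and 14 of the other 25 members (56.0%). The interval lay within 1.5-fold for 33 members (97.1%, against 5174 of the 5449 genes). The exception was ALD4. Values lay between 6.06 and 14.67 on single arrays, so every member was above the background level of 4.67 on every array. The MATa genes were above that level too, at 5.11 to 7.82 in this MATalpha strain. PDC6 (6.06 to 6.49) and GPM2 (6.98 to 7.46) lay inside the range of the MATa genes. For these members a value above background does not show that the transcript was detected.

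**Figure D1:**
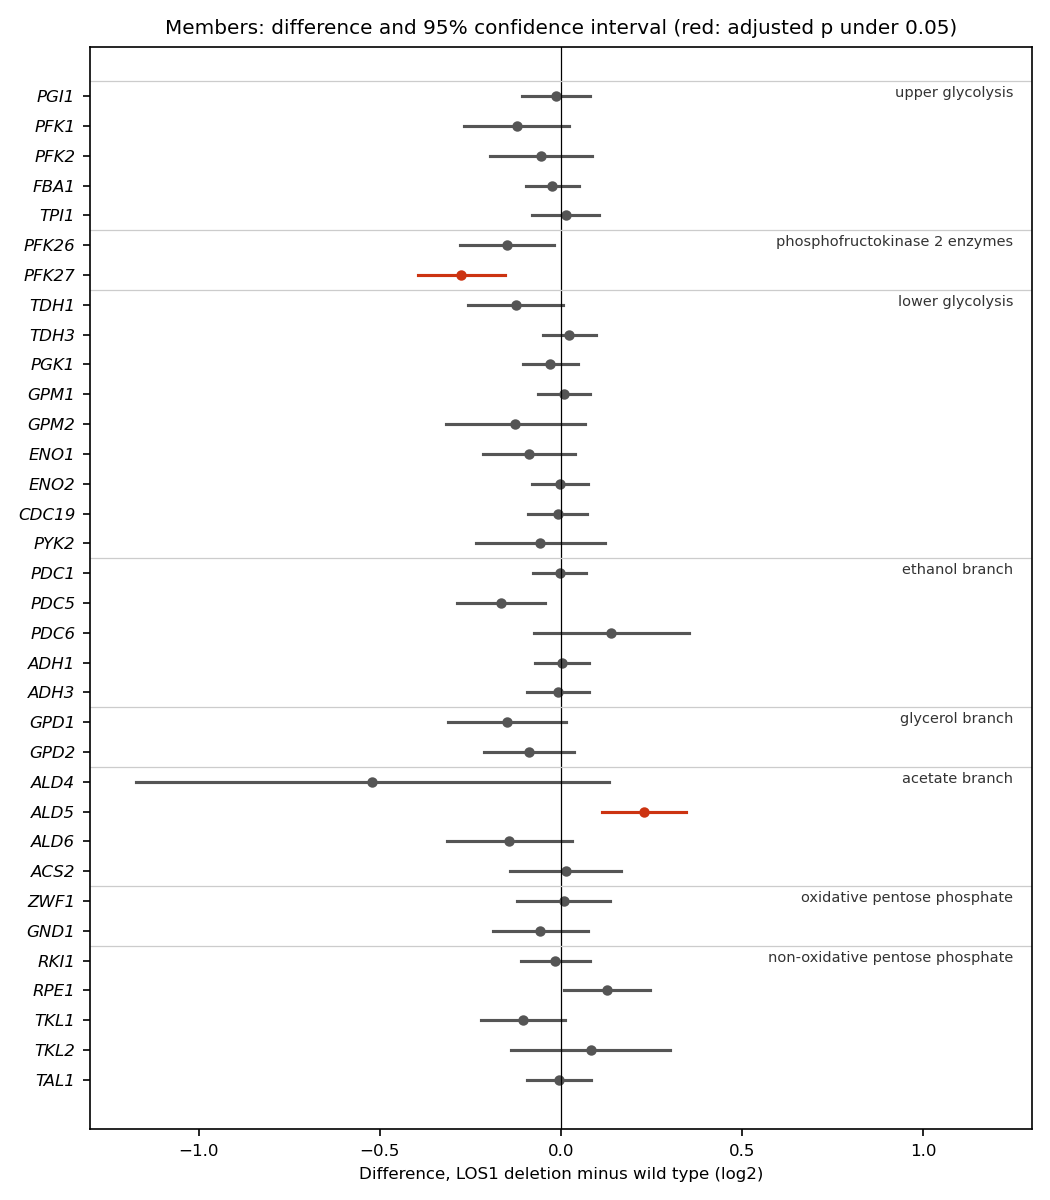
Difference between the LOS1 deletion and wild type (log2, horizontal axis) for the 34 members in order of their role, as a point with its 95% confidence interval. PFK27 (-0.28) and ALD5 (0.23) are in red as past the threshold, and ALD4 has the widest interval (-1.17 to 0.13).

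The upper steps showed no call. PGI1, which isomerises glucose-6-phosphate, was at 13.70 to 13.82 in wild type (median 13.76) and at 13.80, 13.70 and 13.74 in deletion cultures 7, 8 and 9. Culture 8 lay just below the wild-type range and the other 2 inside it, with a difference of -0.015 (95% interval -0.11 to 0.079, limma adjusted p = 0.871). PFK1 and PFK2, the 2 subunits of phosphofructokinase, the committing step of glycolysis, had differences of -0.12 (95% interval -0.27 to 0.022) and -0.055 (95% interval -0.20 to 0.085). In both subunits deletion culture 8 was the lowest of the 9 arrays. FBA1, the aldolase, and TPI1, triosephosphate isomerase, differed by -0.024 and 0.013.

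PFK27 and PFK26 encode the kinases that make fructose 2,6-bisphosphate, which activates phosphofructokinase. Glycolytic flux was not measured. PFK27 (YOL136C) was at 10.55 to 10.73 in wild type (median 10.62) and at 10.26, 10.43 and 10.36 in deletion cultures 7, 8 and 9. Every deletion culture lay below every wild-type culture. The fall was -0.28 ± 0.054 (SE), a 1.21-fold decrease (95% interval 1.11 to 1.32-fold, limma adjusted p = 0.0177). The call was lost without deletion culture 7 (adjusted p = 0.0755), without deletion culture 9 (adjusted p = 0.0641) and without wild-type cultures 1 and 4 together (adjusted p = 0.0768). It was also lost in 4 of the 15 fits that averaged wild-type cultures in pairs as possible duplicates of an isolate (adjusted p up to 0.0636). The difference stayed between -0.31 and -0.23 over 31 alternative fits. PFK26 (YIL107C) was at 9.59 to 9.79 in wild type (median 9.69) and at 9.45, 9.53 and 9.62 in the deletion. Cultures 7 and 8 were below all wild-type cultures and culture 9 was not. Its difference of -0.15 ± 0.058 (SE) did not pass (limma adjusted p = 0.172). FBP26, which encodes the phosphatase that degrades the same activator and is not among the 35 genes, had a difference of -0.14 (limma adjusted p = 0.285).

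In lower glycolysis none of the 9 measured members passed, with differences from -0.13 to 0.023 and limma p under 0.05 before adjustment for 0 of them, against 22.0% of all genes. Of these 9, 5 had a mean signal above 14, where 0 of 85 genes reached that p. TDH3, the major glyceraldehyde-3-phosphate dehydrogenase, was at 14.62 to 14.65 in wild type (median 14.63) and at 14.67, 14.65 and 14.65 in the deletion. It was the brightest of the S. cerevisiae genes on all 9 arrays. TDH1, the isozyme linked to slow growth and stationary phase, was at 11.35 to 11.52 in wild type (median 11.47) and at 11.48, 11.23 and 11.31 in the deletion. Cultures 8 and 9 lay below the wild-type range and culture 7 inside it, with a difference of -0.13 (95% interval -0.26 to 0.0054, limma adjusted p = 0.247). PGK1 (phosphoglycerate kinase), GPM1 (phosphoglycerate mutase), ENO2 (the glucose-induced enolase) and CDC19 (the major pyruvate kinase) had differences of -0.030, 0.0080, -0.0026 and -0.0093. ENO1, the other enolase, differed by -0.088 (95% interval -0.22 to 0.040). GPM2, a relative of GPM1 without a known role in glycolysis, differed by -0.13 (95% interval -0.32 to 0.067). PYK2, the minor pyruvate kinase that is used when glycolytic flux is low, was at 9.46 to 9.80 in wild type (median 9.50) and at 9.54, 9.53 and 9.48 in the deletion, with the 2 highest values in wild-type cultures 1 and 4.

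The ethanol branch also gave no call. PDC1, the major pyruvate decarboxylase, was at 14.43 to 14.47 in wild type (median 14.45) and at 14.45, 14.44 and 14.45 in the deletion. ADH1, the alcohol dehydrogenase that makes ethanol, and ADH3, the mitochondrial isozyme, had differences of 0.0015 and -0.0078 (limma adjusted p = 0.984 and 0.928). PDC5 (YLR134W), a decarboxylase known to be induced when PDC1 is lost or thiamine is short, was at 9.68 to 9.91 in wild type (median 9.82) and at 9.61, 9.62 and 9.66 in deletion cultures 7, 8 and 9. Every deletion culture lay below every wild-type culture, by little in the case of wild-type culture 1. The difference of -0.17 ± 0.055 (SE, 95% interval -0.29 to -0.045) did not pass over all genes (limma adjusted p = 0.113). PDC6, the third decarboxylase, was at 6.06 to 6.46 in wild type (median 6.29) and at 6.46, 6.49 and 6.29 in the deletion, a difference of 0.14 (95% interval -0.075 to 0.35). PDC2, the activator of PDC1 and PDC5, had a difference of -0.081 (limma adjusted p = 0.393) and is named here after its values were seen.

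ALD5, PFK27 and PDC5 were the 3 members without overlap between the groups, 8.82% of the members. Over all genes the groups did not overlap for 12.6% (5.19% with the deletion above and 7.38% with it below).

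GPD1 and GPD2, the glycerol-3-phosphate dehydrogenases that send carbon to glycerol, did not pass. GPD1, the isozyme of osmotic stress, was at 11.91 to 12.26 in wild type (median 11.99) and at 11.86, 11.93 and 11.83 in the deletion. Wild-type culture 1 held the top value, and the difference was -0.15 (95% interval -0.31 to 0.013, limma adjusted p = 0.270). GPD2, the isozyme of redox balance without oxygen, differed by -0.088 (95% interval -0.21 to 0.037).

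The acetate branch held the other call and the widest spread. ALD5 (YER073W) was at 12.64 to 12.85 in wild type (median 12.76) and at 12.97, 12.98 and 12.99 in deletion cultures 7, 8 and 9. Every deletion culture lay above every wild-type culture, and the deletion cultures lay close together (SD 0.012, against 0.083 in wild type). The rise was 0.23 ± 0.052 (SE), or 1.17-fold (95% interval 1.08 to 1.27-fold, limma adjusted p = 0.0331). The call was lost in 6 of the 9 fits that left out 1 culture (wild-type culture 2, 4 or 6, or any deletion culture) and in 5 of the 15 that averaged wild-type cultures in pairs, with an adjusted p of up to 0.122 over 31 alternative fits and a difference between 0.21 and 0.27. ALD4 (YOR374W), the major mitochondrial isozyme, which glucose represses, was at 12.70 and 12.72 in wild-type cultures 1 and 4, at 11.42, 11.95, 11.44 and 11.83 in wild-type cultures 2, 3, 5 and 6, and at 11.66, 11.30 and 11.50 in the deletion. Cultures 1 and 4 thus stood above the other 7 arrays, which overlapped. Its difference of -0.52 ± 0.29 (SE) did not pass (limma adjusted p = 0.334), and without cultures 1 and 4 it was -0.17 (adjusted p = 0.641). ALD6, the cytosolic enzyme that makes most acetate on glucose, was at 13.60 to 13.93 in wild type (median 13.80) and at 13.69, 13.63 and 13.58 in the deletion. Cultures 1 and 4 were again the highest, and the difference was -0.14 (95% interval -0.32 to 0.031, limma adjusted p = 0.319). ACS2, the acetyl-CoA synthetase of cells on glucose, differed by 0.013 (95% interval -0.14 to 0.17).

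**Figure D2:**
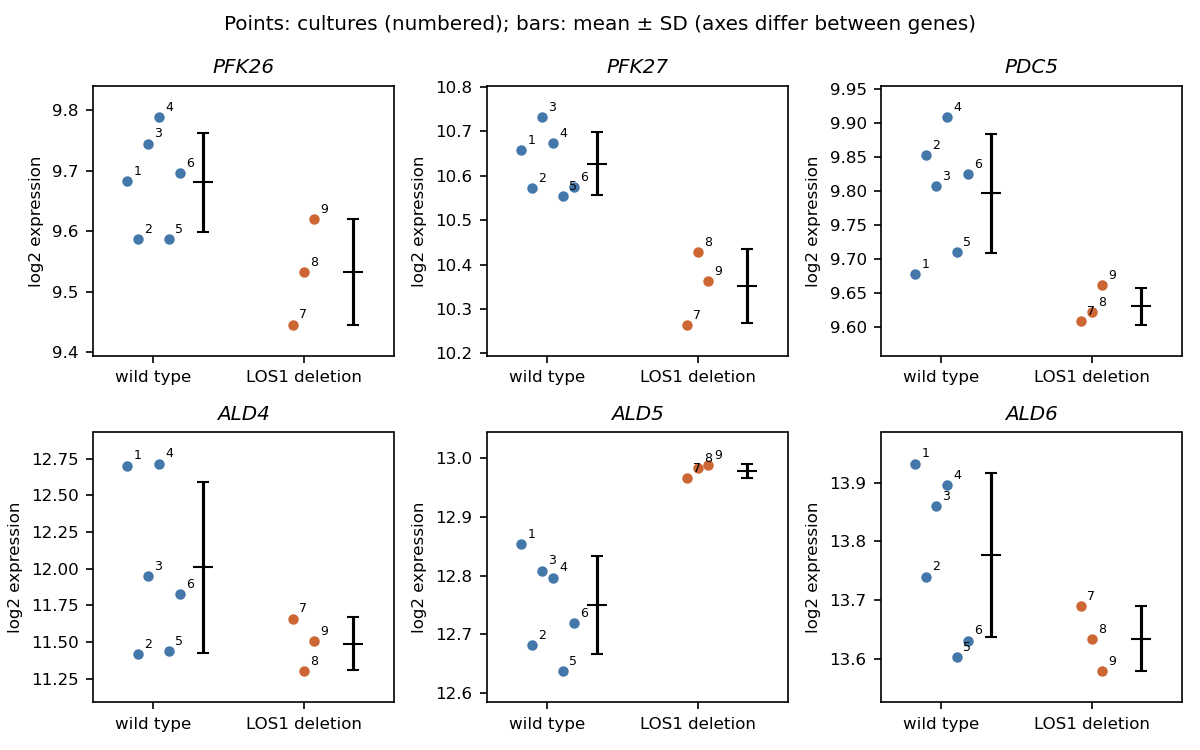
Log2 expression (vertical axes, which differ between genes and do not start at 0) of PFK26, PFK27, PDC5, ALD4, ALD5 and ALD6 in each numbered culture, wild type in blue and LOS1 deletion in orange, with mean ± SD bars. PFK27, PDC5 and ALD5 show no overlap between the groups, and wild-type cultures 1 and 4 stand at 12.70 and 12.72 for ALD4.

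None of the 7 pentose phosphate genes passed, 0 of 2 oxidative and 0 of 5 non-oxidative members. ZWF1, the glucose-6-phosphate dehydrogenase that opens the pathway, was at 12.17 to 12.42 in wild type (median 12.31) and at 12.31, 12.31 and 12.33 in the deletion, inside the wild-type range. Its difference was 0.0073 (95% interval -0.12 to 0.13). GND1, the major 6-phosphogluconate dehydrogenase, differed by -0.057 (95% interval -0.19 to 0.075). RPE1, the epimerase of ribulose-5-phosphate, was at 12.45 to 12.67 in wild type (median 12.57) and at 12.67, 12.68 and 12.76 in the deletion. The lowest deletion value and the highest wild-type value were nearly equal, and the difference of 0.13 (95% interval 0.0078 to 0.25) did not pass (limma adjusted p = 0.199). TKL1, the major transketolase, differed by -0.10 (95% interval -0.22 to 0.0097) and TKL2, its minor isozyme, by 0.082 (95% interval -0.14 to 0.30). RKI1, the ribose-5-phosphate isomerase, and TAL1, the transaldolase, differed by -0.016 and -0.0065.

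Major and minor isozymes were compared through the change of one gene against the change of the other on the same array. Of 13 pairs listed 12 could be formed, and each was tested with an exact 2-sided permutation test over all 84 assignments of the 9 arrays, with adjustment over the 12 pairs. In 7 of the 12 pairs the major gene (TDH3, GPM1, ENO2, CDC19, PDC1 or ADH1) had a mean signal above 14, where values hardly moved on these arrays, so these pair differences largely restate the difference of the minor gene. A pair difference had an exact permutation p under 0.05 before adjustment in 4 pairs and after adjustment in 0. The 4 pairs had the same adjusted p of 0.143, and a lone pair at the smallest exact p of 0.0119 would also reach only 0.143. TDH1 against TDH3 had a pair difference of -0.15 (exact permutation p = 0.0238), and deletion culture 7 lay inside the wild-type range. PDC5 against PDC1 had -0.16 (exact permutation p = 0.0357), with all 3 deletion cultures below all 6 wild-type cultures. PFK27 against PFK26 had -0.13 (exact permutation p = 0.0357), with deletion culture 8 inside the wild-type range. ALD5 against ALD4 had 0.75 (exact permutation p = 0.0476) and no overlap, although the lowest deletion value, 0.57 above the wild-type mean, was close to the 0.52 of wild-type culture 2. The difference of ALD4 itself was -0.52, with wild-type values that spread over 1.3, and that of ALD5 was 0.23. Without wild-type cultures 1 and 4 the pair difference was 0.44.

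In the other 8 pairs the exact permutation p lay between 0.131 and 0.643. ENO1 against ENO2 had -0.085, GPM2 against GPM1 -0.13, PYK2 against CDC19 -0.048 and ADH3 against ADH1 -0.0094. PDC6 against PDC1 had 0.14, TKL2 against TKL1 0.19, GPD2 against GPD1 0.061 and ALD4 against ALD6 -0.38. Without wild-type cultures 1 and 4 ALD4 against ALD6 had -0.096 and PYK2 against CDC19 had 0.031. Both calls among the members fell on genes listed first in their pair. In these counts a gene listed second in any pair is major, so ALD4 is major although it is listed first against ALD6. PFK27 is minor to PFK26 only by this order. By this listing 2 of 11 minor isozymes passed and 0 of 11 major ones, against 5.52% of all genes. Of the major ones 6 had a mean signal above 14, where 0 of 85 genes passed, so the 2 counts are not alike. A limma p under 0.05 before adjustment was found for 3 minor and 1 major isozymes, against 22.0% of all genes. These counts describe the lists and were not tested.

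**Figure D3:**
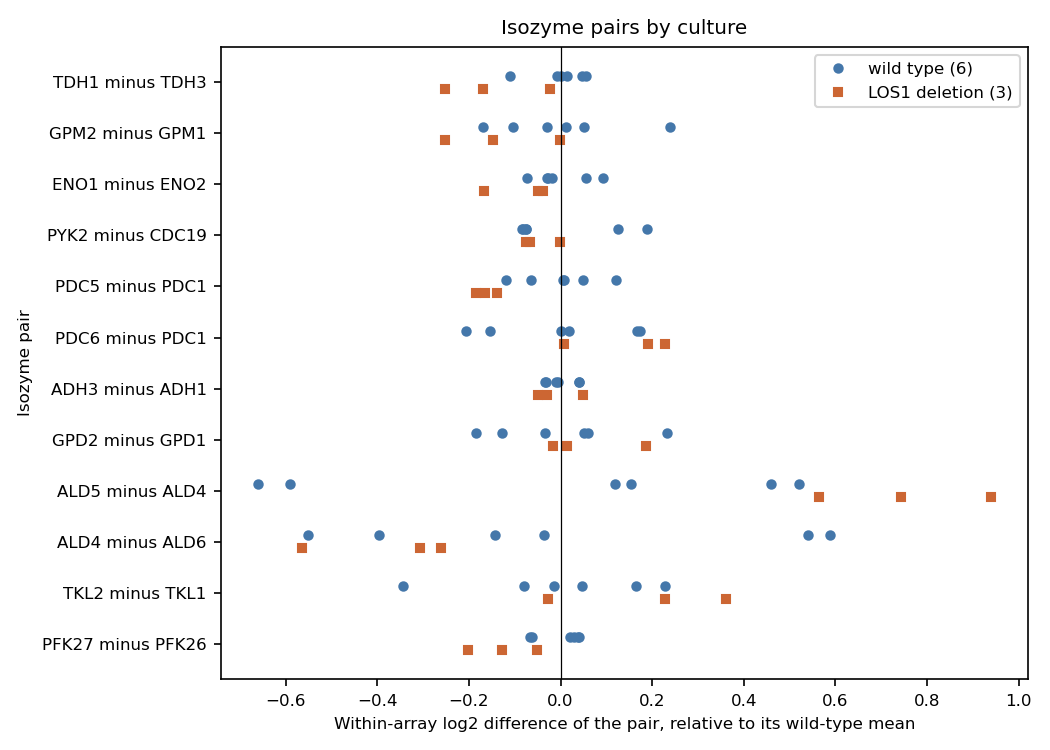
Within-array log2 difference between the isozymes of 12 pairs, relative to the wild-type mean of the pair (horizontal axis), for 6 wild-type cultures (blue circles) and 3 LOS1 deletion cultures (orange squares). The deletion values lie apart from the wild-type values for PDC5 minus PDC1 and ALD5 minus ALD4.

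The size of a difference moved with the signal. FBA1, TPI1, TDH3, PGK1, GPM1, ENO2, CDC19, PDC1 and ADH1 had mean signals above 14, where the brightest gene of any array was at 14.67. Their differences lay between -0.030 and 0.023, and their median SD among wild-type cultures was 0.019, against 0.083 for the other 25 members and 0.090 for all genes. Of all 85 genes with a mean above 14, limma called 0, and 0 had a limma p under 0.05 before adjustment. Of the 11 major isozymes 6 are in this class and of the 11 minor ones 0. Whether signals at this level can still follow a change in transcript was not tested, since scanner intensities were not used here.

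The 25 members at or below 14 shifted together between cultures of the same strain. In wild-type culture 5, 22 of the 25 lay below the wild-type mean, with a median deviation of -0.10, and in deletion culture 8, 20 of the 25 did, with a median of -0.11. The medians were -0.028 and -0.036 in deletion cultures 7 and 9 and between -0.021 and 0.056 in the other wild-type cultures. Over all genes the median deviation was -0.017 in culture 5 and -0.024 in culture 8. Culture 5 was the lowest wild-type culture for 21 of the 34 members (61.8%) and for 26.4% of all genes. For comparison, the median size of the difference between the strains over these 25 members was 0.105. For PFK27 and ALD5 the lowest wild-type culture was culture 5 and the lowest deletion culture was culture 7. Wild-type cultures 1 and 4 were the highest wild-type pair for 8 members (23.5%, against 13.6% of all genes): PFK2, ENO1, CDC19, PYK2, GPD1, ALD4, ALD6 and ACS2. The part of these shifts in the group differences was not tested.

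**Figure D4:**
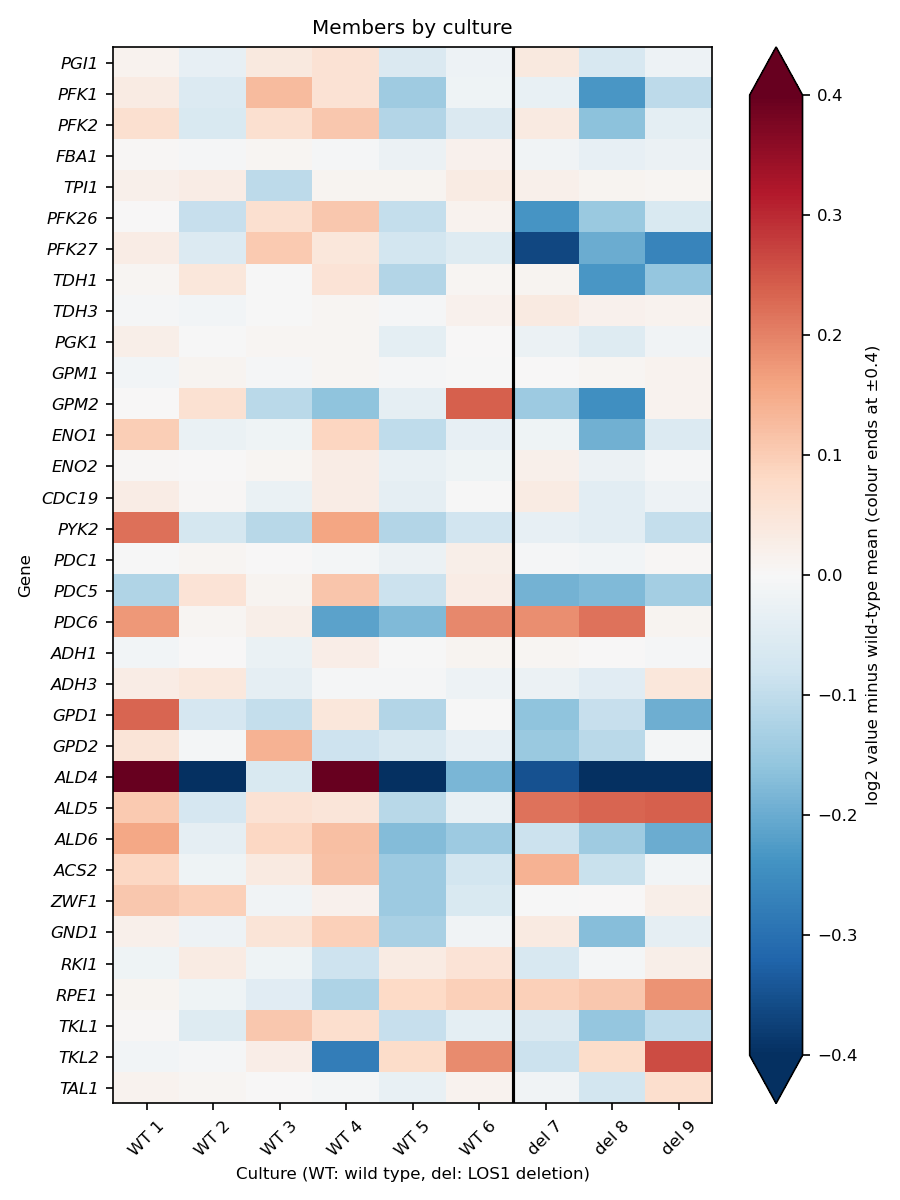
Log2 value of each of the 34 members (rows) in each culture (columns) minus its wild-type mean, red above and blue below, with colours ending at ±0.4. Wild-type culture 5 and deletion culture 8 are mostly blue, PFK27 is blue and ALD5 red in deletion cultures 7 to 9, and genes with a signal above 14, such as GPM1 and PDC1, are almost white.

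Around the members, 64 of 67 listed neighbours in the same pathways had a probe set, and 1 of them rose and 8 fell (14.1%, against 5.52% of all genes). These lists were chosen with earlier results of these data known, so the 2 shares cannot show an excess among the neighbours. Wild-type cultures 1 and 4 stood above the other wild-type cultures for 22 of the 64 (34.4%, against 13.6% of all genes), MDH2, HXK1 and GCY1 among them. Without these cultures 6 of the neighbours passed. Over all genes 146 passed without these cultures, against 301 with all 9 arrays. The rise was in ADH5, a minor alcohol dehydrogenase, from 9.62 to 9.82 in wild type (median 9.71) to 10.30, 10.21 and 10.50 in the deletion. Every deletion culture was above every wild-type culture, with a difference of 0.63 ± 0.068 (SE, 1.55-fold, limma adjusted p = 4.59e-04), and the call held in all 31 alternative fits. Of 8 genes of glycerol metabolism 3 fell and 0 rose: GPP2, a glycerol-3-phosphate phosphatase, by 0.47 on the log2 scale (limma adjusted p = 0.0097), DAK2, a dihydroxyacetone kinase, by 0.26, and GCY1, a glycerol dehydrogenase, by 0.20. DAK2 was at a low level, 5.61 to 5.98 over the arrays, inside the 5.11 to 7.82 of the MATa genes. Under quantile normalization over S. cerevisiae genes its difference was -0.17 and its call was lost. Over the 31 alternative fits the call of DAK2 was lost in 11, that of GCY1 in 13 and that of GPP2 in 3. GPP1, the other phosphatase of the step, had a difference of 0.012 and is named here after its values were seen.

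The remaining falls were spread over 4 lists. HXK1, the hexokinase that glucose represses, was 1 of 4 hexose kinase genes past the threshold, with -1.53. The median difference of the 4 was -0.64. In 3 of the 4 every deletion culture lay below every wild-type culture, against 7.38% of all genes. Wild-type cultures 1 and 4 were the highest wild-type cultures for all 4, HXK1 among them. Without these cultures HXK1 had a difference of -1.13 and still passed (limma adjusted p = 0.00665). Its call was lost in 6 of 31 alternative fits (adjusted p up to 0.124), among them those without deletion culture 8 or 9. Of 5 genes that bypass glycolysis in the reverse direction MDH2, a malate dehydrogenase, and PYC1, a pyruvate carboxylase, fell, with -1.94 and -0.24. The call of MDH2 (limma adjusted p = 4.01e-04) held in all 31 alternative fits. Without wild-type cultures 1 and 4 the MDH2 difference was -1.76 (limma adjusted p = 0.00152). ALD3, a cytosolic aldehyde dehydrogenase of stressed cells, fell by 0.33 on the log2 scale, 1 of 4 genes of its list. Its values, 7.21 to 7.78 over the arrays, also lay inside the range of the MATa genes. PRS2, a subunit of the enzyme that makes phosphoribosyl pyrophosphate from ribose-5-phosphate, was 1 of 15 genes of the other pentose phosphate list that passed, with -0.18 (limma adjusted p = 0.0426), and lost its call in 23 of 31 alternative fits, median centring among them. PYC1 lost its call in 16 and ALD3 in 7. None of 9 regulators passed, among them GCR1, GCR2, TYE7 and RAP1, which drive glycolytic genes, and the smallest p was that of STB5, an activator of pentose phosphate genes (difference -0.091, limma adjusted p = 0.242). None of 3 relatives of glycolytic enzymes and none of 8 genes of pyruvate entry into mitochondria passed.

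**Figure D5:**
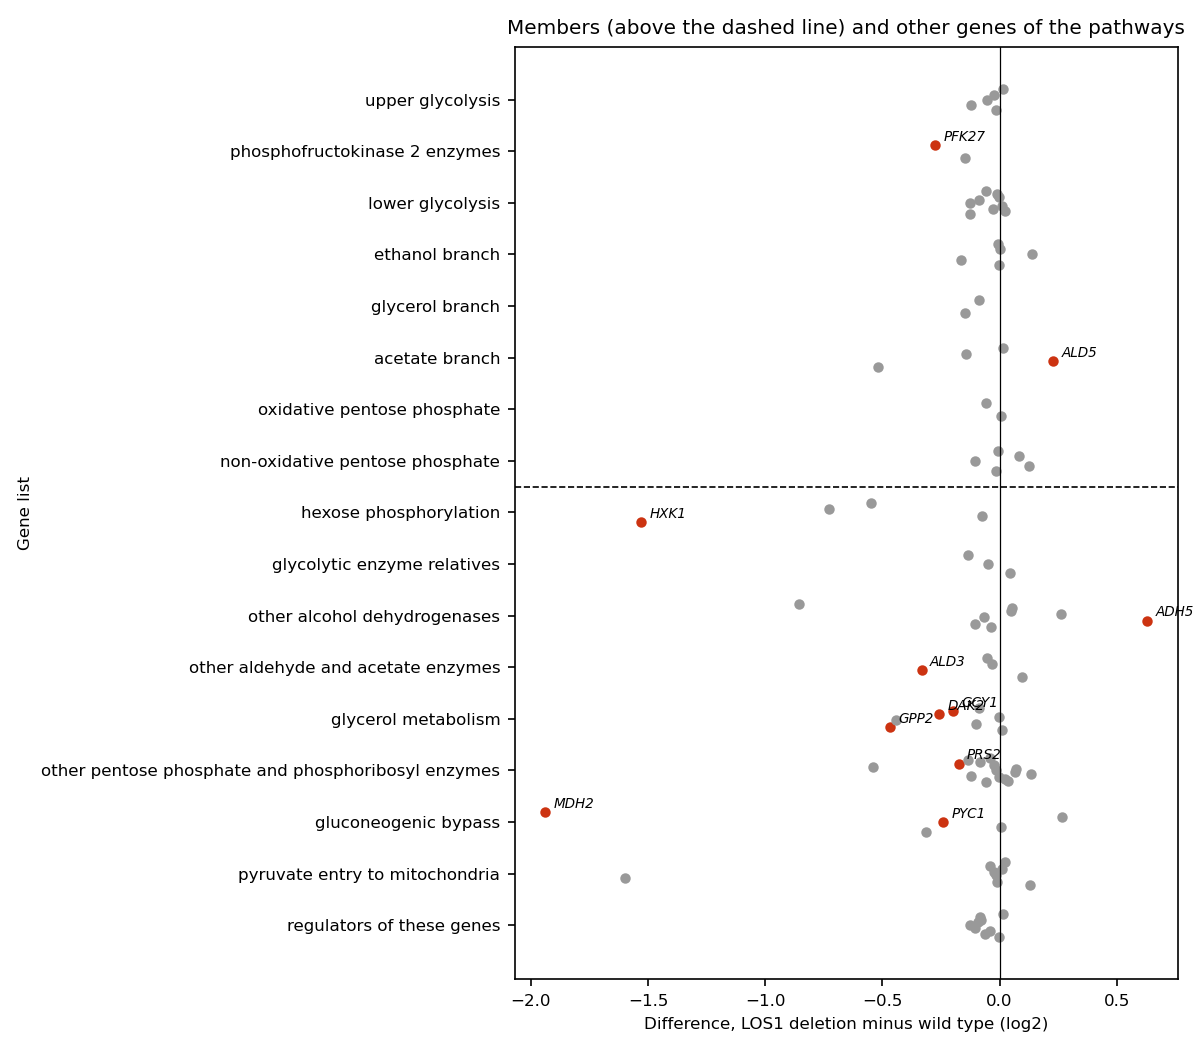
Difference between the LOS1 deletion and wild type (log2, horizontal axis) for the 34 members, by role above the dashed line, and for 64 other genes of the same pathways below it. Genes past the threshold are red and named: PFK27 and ALD5 among the members, and 9 others from MDH2 (-1.94) to ADH5 (0.63).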

How the data were processed

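RNA of 9 cultures was measured on 9 arrays. The authors deposited log2 expression values per probe set, made with RMA per the submitters' processing notes (version not given in the sources used here). RMA quantile normalizes the arrays, so differences are relative to the other transcripts. The platform annotation gave a single gene for 7244 of the 10928 probe sets, several genes for 1 and no gene for 3683. Of those with a single gene, 5498 matched S. cerevisiae assembly R64, and the brightest probe set of each gene was kept (5449 genes). The other 1746 were taken as S. pombe probe sets and set the background level. Each of the 34 members had 1 probe set, none of the kind that can detect several transcripts. Groups came from the sample descriptions. Tests used limma 3.58.1 in R 4.3.3 (lmFit, eBayes, 2-sided), checked on simulated data, and exact permutation. Folds for genes under background are bounds against that level. The members, lists and tests were chosen with earlier results of these data known. By rule the genes named were all members, up to 4 called genes of each other list (otherwise that with the smallest p), LOS1 and URA3. Other genes fall outside that rule, among them MPC1, MPC2, GCR1, GCR2, TYE7, RAP1 and the strain and mating-type markers. PDC2, GPP1 and PYC2 also fall outside it and are said to be named after their values were seen. Besides TDH2, the genes ERR1, ERR2 and PGM3 are not analysed here. Alternatives were other scalings, averaged probe sets, a background filter, limma with a robust prior that follows intensity (statmod 1.5.0), weights per array, a threshold of 0.01, and sets of cultures left out or averaged. No genome coordinates or sequences are given. The number of arrays limits the precision.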

Additional observations from a re-analysis of the deposited data

Results flagged for a closer look

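Among the 6 wild-type cultures, 2 of the 34 members had a culture far from the others by Dixon's test, where chance flags about 1 in 20 groups. TPI1 was at 14.16 in wild-type culture 3, with the next lowest at 14.27. TDH1 was at 11.35 in wild-type culture 5, with the next lowest at 11.47. Neither gene was past the threshold with or without that culture.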

How the results depend on the processing

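No paired analysis was possible because the wild-type cultures are numbered 1 to 6 and the deletion cultures 7 to 9. Over all genes 301 passed, against 498 with array weights, 146 without wild-type cultures 1 and 4, 110 at an adjusted p of 0.01, and 126 (without deletion culture 8) to 478 (without wild-type culture 5) when 1 culture was left out. With wild-type cultures averaged in pairs the count was 129 to 447. The count of members was 2, with 0 to 2 when 1 culture was left out (0 without deletion culture 7 or 9), 1 without wild-type cultures 1 and 4, 0 at an adjusted p of 0.01, and 0 to 4 over the 15 pairings. Members other than PFK27 and ALD5 passed only in some pairings, ALD4 in 2 and PDC5 in 1, and 30 of the 34 passed in none of the 32 fits. The other pathway genes gave 9, against 15 with array weights, 3 at 0.01, 4 to 13 with 1 culture left out and 2 to 15 over the pairings. Members without overlap numbered 3, and 2 under quantile normalization over S. cerevisiae genes. They numbered 3 to 7 when 1 culture was left out and 7 to 12 over the pairings, where fewer arrays make separation easier. The isozyme count was 0 in every setting run. The smallest possible exact permutation p was 0.0357 without 1 deletion culture, where most pairs would have to reach it for any to pass. With 3 against 3 it was 0.1, so no pair could pass and the 0 there was fixed in advance. Of 1080 single values under alternatives, 1012 kept their side of the threshold, 63 lost it, 5 gained it and 0 of the called ones turned. This total includes the pair tests and settings that left member values unchanged, such as averaged probe sets, so it does not measure stability. Among the called genes, ALD5 lost its call in 11 of 31 fits and PRS2 in 23. The sign turned in 1 to 4 of 31 fits for 13 members, with differences of at most 0.082 in size and 0 of them called. Variance models do not apply to overlaps or pair tests. The cause was not tested.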

Other observations

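The paralogs of pyruvate carboxylase, which makes oxaloacetate from pyruvate, differed in direction of value but only the first passed. PYC1 fell by 0.24 on the log2 scale (limma adjusted p = 0.0302), and PYC2, chosen after its values were seen, was at 11.68 to 12.04 in wild type and at 12.22, 12.07 and 12.24 in deletion cultures 7, 8 and 9, a difference of 0.26 that did not pass (limma adjusted p = 0.0928). The difference between the paralogs was not tested. MPC3, a subunit of the mitochondrial pyruvate carrier, was at 9.44, 8.81 and 8.99 in the deletion and at 9.68 to 11.74 in wild type, where cultures 1 and 4 were highest. Its difference of -1.60 did not pass (limma adjusted p = 0.0641). It passed in 12 of 31 alternative fits: in 10 of the 15 with wild-type cultures averaged in pairs, with array weights and without wild-type culture 5 (adjusted p down to 0.00196). MPC1 and MPC2, the other carrier subunits, had differences of 0.13 and -0.013.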
